A study of Rattus norvegicus with 12 samples.

Results

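The genes described here make, store and clear retinoic acid in the liver. They were the 9 genes Rbp4, Bco1, Lrat, Rdh7, Dhrs3, Aldh1a1, Crabp1, Cyp26a1 and Rarb, chosen by symbol, and each is read by 1 probe set of the Affymetrix Rat Genome 230 2.0 array, out of 20826 probe sets with a single annotated gene and 14217 genes in all. The samples were livers of male Sprague-Dawley rats aged 10 weeks, gavaged every 24 h over 72 h, with 1 array per liver. The daily dose was 300 mg/kg for both myclobutanil and propiconazole and 175 mg/kg for triadimefon, and what the control rats received is not stated in the labels. Each of these 4 groups held 3 rats, which makes 12 arrays. All 3 compounds are triazole fungicides, made to block the fungal sterol demethylase, a cytochrome P450 enzyme.

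The liver takes up dietary vitamin A and keeps most of the body's reserve as retinyl esters in hepatic stellate cells, where Lrat makes the ester. Retinol leaves the liver on the carrier protein encoded by Rbp4, and beta-carotene is cleaved to retinaldehyde by the product of Bco1. Retinol is oxidized to retinaldehyde by retinol dehydrogenases such as Rdh7, the reaction is run backwards by Dhrs3, and Aldh1a1 oxidizes retinaldehyde to retinoic acid. Retinoic acid binds receptors such as Rarb in the nucleus, is carried in the cytosol by Crabp1, and is hydroxylated for removal by Cyp26a1, itself a cytochrome P450. Cyp26a1, Rarb, Lrat and Dhrs3 are textbook retinoic acid responsive genes.

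Retinoic acid receptors bind direct repeats of a hexamer, and a spacing of 5 bases is the best known arrangement. The 300-base windows of the RefSeq promoter table (build GRCr8, 250 bases before the annotated start and 50 from it) were found for 9 of 9 members and searched on both strands for AGGTCA, its variant AGTTCA, the related form GGGTCA or the related form GGTTCA, followed by any of the same 4 after 1, 2 or 5 bases. A repeat with 5 bases between occurred in the windows of Cyp26a1 and Rarb, 2 of the 9, against 0.382% of 33469 windows of the same length. Repeats spaced by 1 base (0.233% of all windows) or 2 bases (0.17%) were found in none of the 9. The 2 windows with a match are shown, with the hexamers in capitals, because both genes are among the textbook responsive genes named above. That of Aldh1a1 is shown because its transcript moved furthest. The 250 bases before the start of Cyp26a1 are chr1:244883572-244883821 on the plus strand, with the repeat at bases -92 to -76 counted from the start and read on the opposite strand. The 250 bases before the start of Aldh1a1 are chr1:227537370-227537619 on the plus strand. For Rarb only 30 bases around the match are given, chr15:11336410-11336439 on the plus strand, where the repeat covers bases 25 to 41 counted from the start. A match is a description of these letters and not a measured binding site.
Cyp26a1: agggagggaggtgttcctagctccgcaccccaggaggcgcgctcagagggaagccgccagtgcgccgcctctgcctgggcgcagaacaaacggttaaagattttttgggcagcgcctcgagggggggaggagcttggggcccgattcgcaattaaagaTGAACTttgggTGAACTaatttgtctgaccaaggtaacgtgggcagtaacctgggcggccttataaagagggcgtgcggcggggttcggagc
Aldh1a1: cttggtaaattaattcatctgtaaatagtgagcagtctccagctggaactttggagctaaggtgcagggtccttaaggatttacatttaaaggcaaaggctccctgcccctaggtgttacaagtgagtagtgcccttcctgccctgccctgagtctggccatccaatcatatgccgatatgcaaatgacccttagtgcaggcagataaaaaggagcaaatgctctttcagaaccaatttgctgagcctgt
Rarb: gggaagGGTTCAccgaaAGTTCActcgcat

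Each value below is a deposited log-like score, quantile normalized over the 12 arrays. The base of the logarithm and the zero point are not stated, so a difference is given in these units and is not a fold change, and the level of 1 probe set cannot be set against that of another. As a yardstick, the hybridization spike-in cre lay 2.73 units above bioB in the median array. Differences are given ± SE from a limma model of all 4 groups, and a gene was called at a Benjamini-Hochberg adjusted p under 0.05 over 21729 probe sets. These were left after setting aside the dimmest 30% by mean over the 12 arrays, and 9 of 9 members passed that filter. Precision is limited by the number of arrays. Myclobutanil replicate 1 differed from the other arrays, with a deposited median of 0.157 against 0.0182 to 0.0552 on the other 11 arrays and a median correlation of 0.927 with the other arrays against 0.962 to 0.982, so results are also given without it. The 3 comparisons with control share the same control arrays and are not independent of each other.

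Aldh1a1, which makes retinoic acid from retinaldehyde in the cytosol, rose in all 3 treated groups and was the member with the largest difference in each. Its values were 2.31, 2.56 and 2.21 in myclobutanil livers, 2.65, 2.54 and 2.27 in propiconazole livers and 2.38, 2.46 and 2.04 in triadimefon livers, against 1.52, 1.19 and 1.37 in control livers. All 9 treated livers lay above all 3 control livers, as did 3.97% of the probe sets tested. Aldh1a1 rose by 1.0 ± 0.14 with myclobutanil, 1.13 ± 0.14 with propiconazole and 0.93 ± 0.14 with triadimefon (limma adjusted p = 0.0114, 0.00669 and 0.0145, 3 arrays a group). The F test of limma over the 3 differences also passed (adjusted p = 0.0143, with 1.07% of all probe sets called). Without myclobutanil replicate 1 the differences were 1.01, 1.11 and 0.92 (limma adjusted p = 0.0155, 0.00458 and 0.0104). The triadimefon call ended in 5 of the 6 fits that left out a control or triadimefon array (limma adjusted p from 0.0523 to 0.0764 in those 5), and the myclobutanil call ended without control replicate 3 (0.0531). Aldh1a1 has close relatives in the rat, Aldh1a7 among them, and its probe set may read them too.

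**Figure D1:**
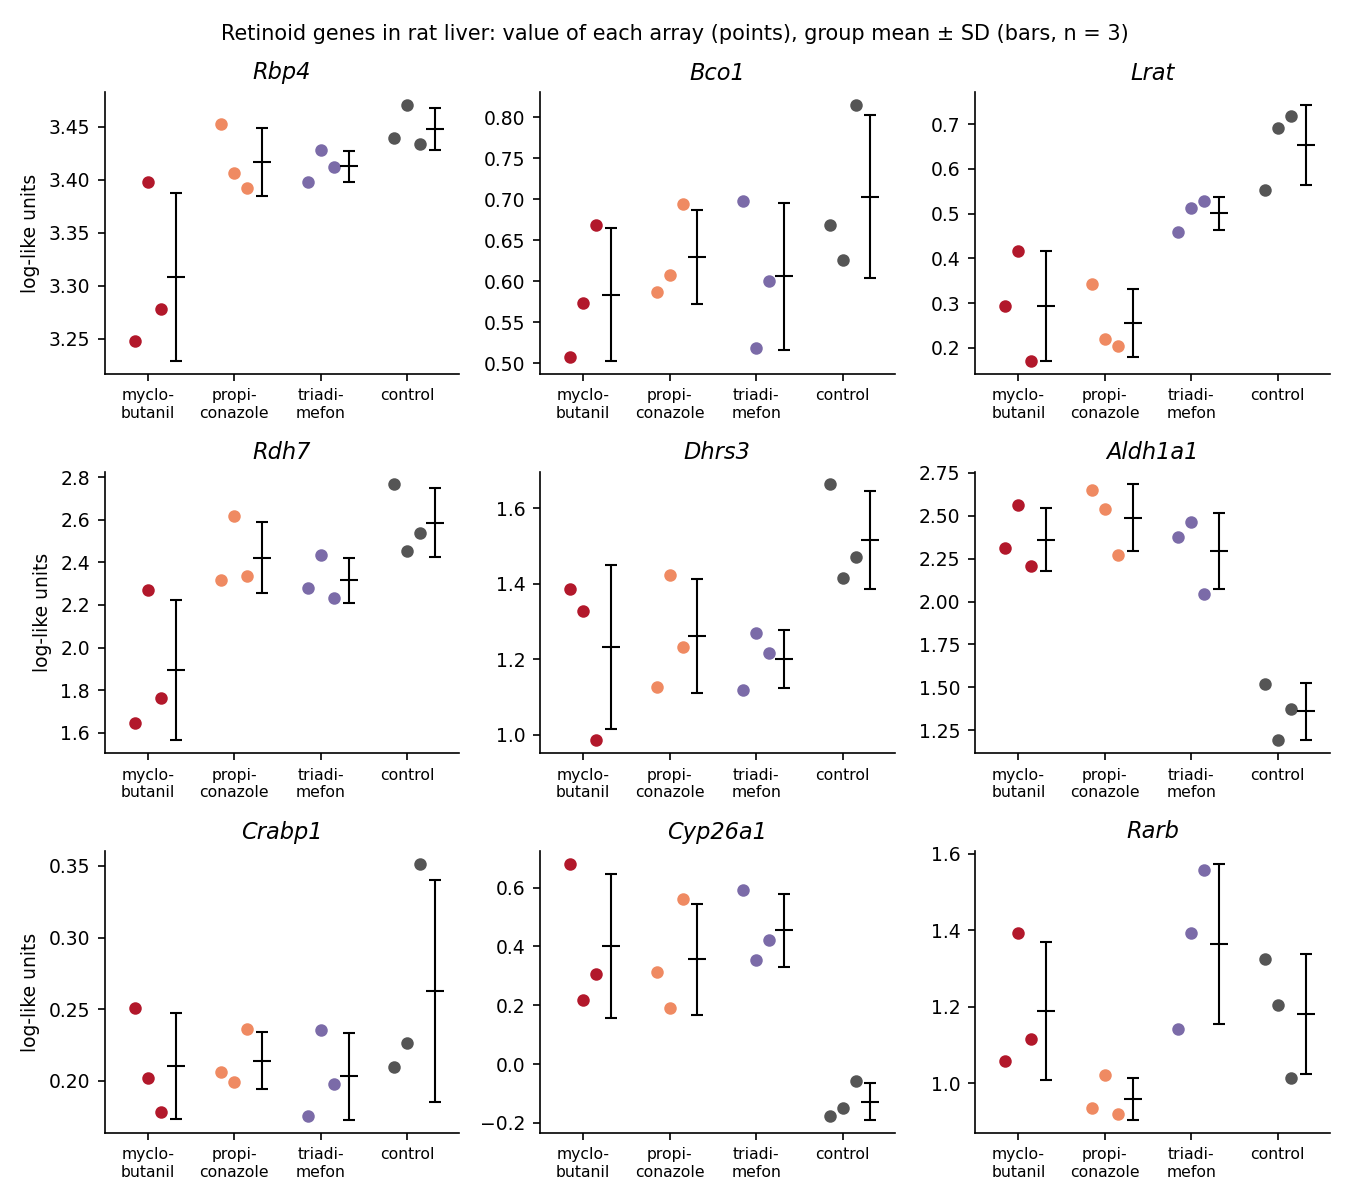
Each panel shows 1 member gene, with the quantile-normalized value of each array in log-like units on the vertical axis (scales differ between panels) and the 3 arrays of each group as points, and bars give the group mean and SD. Aldh1a1 and Cyp26a1 lie above the control livers in 9 of 9 treated livers and Lrat lies below them in 9 of 9.

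Cyp26a1, the main hydroxylase that clears retinoic acid and the gene with the repeat shown above, lay above control in every treated liver. Its values were 0.68, 0.22 and 0.31 in myclobutanil livers, 0.31, 0.19 and 0.56 in propiconazole livers and 0.59, 0.35 and 0.42 in triadimefon livers, against -0.18, -0.15 and -0.06 in control livers. The control signal was dim: the deposited values of -0.18, -0.15 and -0.05 lay below their array medians of 0.042, 0.045 and 0.055. The filter on dim probe sets used the mean over all 12 arrays, treated livers included. Whether the transcript was detected in control livers was not tested. The groups did not overlap in any of the 3 comparisons, a pattern shared in the upward direction by 10.2% of probe sets for myclobutanil, 12.1% for propiconazole and 12.5% for triadimefon. The highest of the 12 values was that of myclobutanil replicate 1. The differences were 0.53 ± 0.12, 0.48 ± 0.12 and 0.58 ± 0.12 for myclobutanil, propiconazole and triadimefon, and each missed the threshold (limma adjusted p = 0.0522, 0.0831 and 0.0559, 3 arrays a group). Their 95% intervals were 0.27 to 0.79, 0.22 to 0.75 and 0.32 to 0.85. The F test did not pass (limma adjusted p = 0.0842). The myclobutanil difference passed under median centring (limma adjusted p = 0.0499), a 50% filter on dim probe sets (0.0412), array weights (0.0209) or without myclobutanil replicate 2 (0.0275). In 9 of 13 other settings the myclobutanil difference did not pass (limma adjusted p of up to 0.196). The propiconazole difference did not pass in 11 of 14 (up to 0.307), nor the triadimefon difference in 8 of 14 (up to 0.186). Without myclobutanil replicate 1, which also enters the shared estimate of spread, the difference stood at 0.39 for myclobutanil (limma adjusted p = 0.0605), and it passed for propiconazole at 0.49 (0.0167) and for triadimefon at 0.59 (0.0094).

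Lrat, which esterifies retinol for storage, fell with myclobutanil and propiconazole. Its values were 0.29, 0.42 and 0.17 in myclobutanil livers, 0.34, 0.22 and 0.20 in propiconazole livers and 0.46, 0.51 and 0.53 in triadimefon livers, against 0.55, 0.69 and 0.72 in control livers. All 9 treated livers lay below all 3 control livers, as did 4.46% of probe sets, and the triadimefon livers lay between the other treated livers and control. On the deposited values the triadimefon livers overlapped control (highest 0.528 against a lowest control of 0.508). The differences were -0.36 ± 0.07 for myclobutanil and -0.40 ± 0.07 for propiconazole (limma adjusted p = 0.032 and 0.023, 3 arrays a group), and -0.15 ± 0.07 for triadimefon, which did not pass (0.365). The doses differ, so the size with triadimefon is only set beside the others. The F test passed (limma adjusted p = 0.040), but it lost that call in 13 of 18 other settings, with an adjusted p of up to 0.183. The propiconazole call ended in 5 of the 6 fits without 1 control or propiconazole array (limma adjusted p from 0.0533 to 0.112 in those 5) and the myclobutanil call ended without control replicate 2 (0.102), control replicate 3 (0.135) or myclobutanil replicate 3 (0.0853).

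Because Lrat marks hepatic stellate cells, their other markers were read beside it. Of 18 listed, 15 were tested, and none passed limma for myclobutanil (1 higher and 3 lower with an unadjusted p below 0.05), propiconazole (0 and 1) or triadimefon (1 and 0). Averaged over the 15, their level per liver ran from 0.52 to 0.71 with myclobutanil, from 0.54 to 0.61 with propiconazole and from 0.62 to 0.86 with triadimefon, against 0.62 to 0.72 in control. Every propiconazole liver thus lay below every control liver in this average, while the other treated groups overlapped control. The markers did not all move alike with propiconazole. Vipr1 had the largest difference at -0.48, and the difference was above 0 for 4 of the 15. In bulk liver, fewer cells of a type and less RNA per cell cannot be told apart, and the part of stellate cells in the Lrat values was not tested. The log-like scale has no true zero, so no marker can be called absent.

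Rdh7, a retinol dehydrogenase of the short-chain family, fell with myclobutanil. Its values were 1.65, 2.27 and 1.77 in myclobutanil livers, 2.32, 2.62 and 2.33 in propiconazole livers and 2.28, 2.43 and 2.23 in triadimefon livers, against 2.77, 2.45 and 2.54 in control livers. The 3 myclobutanil livers and the 3 triadimefon livers lay below all control livers, as did 13.1% and 15.8% of probe sets in those comparisons. Propiconazole replicate 2 lay among the control livers. The difference was -0.69 ± 0.15 with myclobutanil (limma adjusted p = 0.0496, 3 arrays a group), -0.16 ± 0.15 with propiconazole (0.681) and -0.27 ± 0.15 with triadimefon (0.49). The F test did not pass (limma adjusted p = 0.142). The myclobutanil call ended when any 1 of the 3 control arrays was left out, when myclobutanil replicate 1 was left out (-0.56, limma adjusted p = 0.0728) and when myclobutanil replicate 3 was left out (-0.64, 0.121). Array weights, which gave myclobutanil replicate 2 the most weight, put the difference at -0.35 (0.104). Rdh7 has close paralogs, so its probe set may read related transcripts.

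Dhrs3 encodes a reductase that returns retinaldehyde to retinol, opposite in direction to Rdh7. Its values were 1.38, 1.33 and 0.98 in myclobutanil livers, 1.13, 1.42 and 1.23 in propiconazole livers and 1.12, 1.27 and 1.22 in triadimefon livers, against 1.66, 1.42 and 1.47 in control livers. Of the treated livers, 8 of 9 lay below all control livers, and propiconazole replicate 2 lay just above the lowest control. The share of all probe sets with 8 of 9 was not computed. Groups without overlap in the downward direction made up 13.1% of probe sets for myclobutanil and 15.8% for triadimefon. The differences of -0.28 ± 0.12, -0.26 ± 0.12 and -0.31 ± 0.12 for myclobutanil, propiconazole and triadimefon did not pass (limma adjusted p = 0.201, 0.351 and 0.274, 3 arrays a group).

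The supply genes Rbp4 and Bco1 were not called in any group. Rbp4 stood at 3.31 ± 0.079 in myclobutanil livers, 3.42 ± 0.032 in propiconazole livers and 3.41 ± 0.015 in triadimefon livers, against 3.45 ± 0.020 in control livers (mean ± SD, n = 3 each). Only 31 probe sets had a higher mean, and quantile normalization compresses differences at the very top: the 12 deposited values spanned 1.14 units and the normalized ones 0.22. The difference for myclobutanil was -0.14 ± 0.05 (limma adjusted p = 0.153) and -0.46 on the deposited values, where it did not pass either (0.276). On the deposited values the differences were -0.34 for propiconazole and -0.30 for triadimefon, against -0.03 and -0.04 after normalization, and these did not pass (limma adjusted p = 0.486 and 0.606 on the deposited values). Bco1 averaged 0.58 ± 0.081 with myclobutanil, 0.63 ± 0.057 with propiconazole and 0.61 ± 0.090 with triadimefon, against 0.70 ± 0.099 in control, and its groups overlapped in all 3 comparisons (limma adjusted p from 0.348 to 0.686).

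Crabp1 and Rarb were not called either. Crabp1 lay between 0.18 and 0.25 in the treated livers and between 0.21 and 0.35 in control livers, with the narrowest spread of the 9 genes (range of 0.176 over the 12 arrays), and its differences had 95% intervals between -0.155 and 0.0461. Rarb, whose receptor protein switches on genes such as Cyp26a1 and whose window holds the other repeat shown above, had values of 1.06, 1.39 and 1.12 in myclobutanil livers, 0.94, 1.02 and 0.92 in propiconazole livers and 1.14, 1.39 and 1.56 in triadimefon livers, against 1.33, 1.20 and 1.01 in control livers. Its differences were 0.01 ± 0.12, -0.22 ± 0.12 and 0.18 ± 0.12 (limma adjusted p = 0.978, 0.445 and 0.564, 3 arrays a group), and each group overlapped control. The 2 genes whose windows hold a repeat therefore had different values: Cyp26a1 lay above control in 9 of 9 treated livers and Rarb in 3 of 9.

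Counted together, limma called 3 of the 9 members with myclobutanil (Aldh1a1 higher, Lrat and Rdh7 lower), 2 with propiconazole (Aldh1a1 higher, Lrat lower) and 1 with triadimefon (Aldh1a1 higher). Over all probe sets tested, 1.82%, 1.43% and 0.769% were called in these comparisons. Calls in the upward direction were 1 of 9 in each comparison, against 1.04%, 0.81% and 0.488% of all probe sets. Treated and control livers did not overlap for 6 members with myclobutanil (2 higher and 4 lower), against 23.3% of all probe sets (10.2% higher and 13.1% lower). With propiconazole they did not overlap for 3 members (2 higher and 1 lower), against 27.8% (12.1% and 15.7%), and with triadimefon for 6 (2 higher and 4 lower), against 28.3% (12.5% and 15.8%). The propiconazole share lay near that of all probe sets. All 9 treated livers lay beyond all 3 control livers for 3 members, against 8.43% of all probe sets. These counts and shares of overlap are of the normalized values. On the deposited values Rbp4 overlapped control with myclobutanil (highest 3.58 against a lowest control of 3.40). With triadimefon, Rbp4, Lrat and Rdh7 overlapped control on the deposited values (highest 3.47, 0.53 and 2.51 against lowest controls of 3.40, 0.51 and 2.47). The members were chosen with earlier results of these data known, so their share is a description. The median difference of the 9 was -0.12 for myclobutanil, -0.07 for propiconazole and -0.06 for triadimefon, against -0.01 over all tested probe sets in each comparison. The median size of the difference, sign aside, was 0.28, 0.22 and 0.18, against 0.074, 0.056 and 0.056 over all tested probe sets. Without myclobutanil replicate 1, limma called 2 members for myclobutanil, 3 for propiconazole and 2 for triadimefon, since Rdh7 was lost for the first and Cyp26a1 was gained for the other two.

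**Figure D2:**
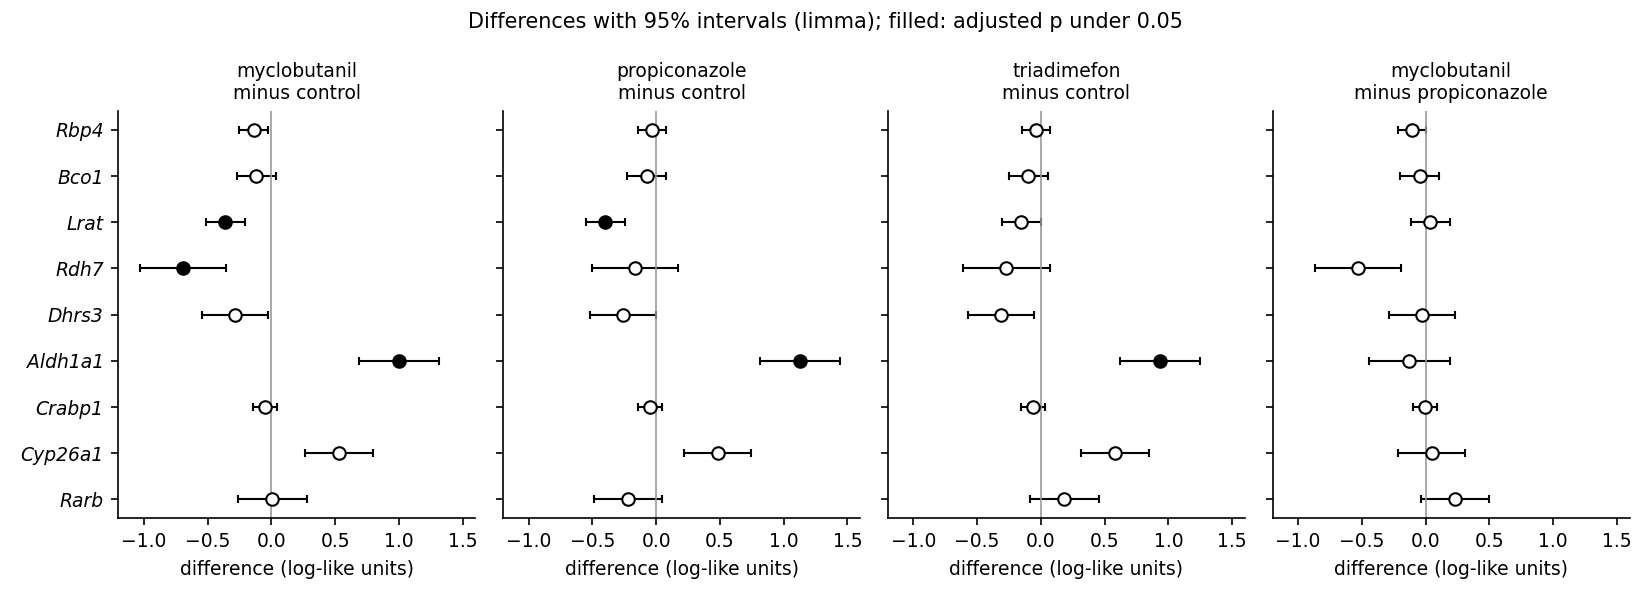
Each panel shows 1 comparison, with the limma difference in log-like units on the horizontal axis, its 95% interval as a bar and filled points for an adjusted p under 0.05. Aldh1a1 is filled in the 3 comparisons with control, Lrat in those of myclobutanil and propiconazole, Rdh7 in that of myclobutanil, and no point is filled between myclobutanil and propiconazole.

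Myclobutanil and propiconazole were given at the same dose and could be compared directly. Both carry a triazole ring, with a nitrile and a butyl chain in myclobutanil and a dioxolane ring in propiconazole. This was 1 pair of compounds, and over all probe sets limma called 0% at an adjusted p under 0.05. None of the 9 members was called in limma, and 1 was lower with an unadjusted p below 0.05. That gene was Rdh7, where all 3 myclobutanil livers lay below all 3 propiconazole livers (as did 7.13% of probe sets) and the difference was -0.53 ± 0.15 (95% interval -0.87 to -0.19, limma adjusted p = 0.365). Rarb was the other member without overlap (2 of 9 members, against 13.4% of all probe sets), with all myclobutanil livers above all propiconazole livers (6.31% of probe sets in that direction) and a difference of 0.23 ± 0.12 (interval -0.04 to 0.50, adjusted p = 0.522 in limma). For Aldh1a1 the difference was -0.13 (interval -0.44 to 0.19), for Lrat 0.04 (-0.11 to 0.19) and for Cyp26a1 0.05 (-0.22 to 0.31). Differences of up to these bounds between the compounds remain possible with 3 arrays per group.

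The rest of the pathway was read from a list of 67 genes, the 9 members included, of which 54 were tested, 3 were dim and 10 had no probe set with a single gene. With myclobutanil 2 rose (Aldh1a1 and Fabp5), 2 fell (Lrat and Rdh7) and 50 did not pass. With propiconazole 1 rose (Aldh1a1), 1 fell (Lrat) and 52 did not pass, and with triadimefon 1 rose (Aldh1a1), no gene fell by limma (5 were lower with an unadjusted p below 0.05) and 53 did not pass. The median difference of the 54 was -0.03, -0.03 and -0.04, against -0.01, -0.01 and -0.02 over all tested genes. Fabp5 encodes a fatty acid binding protein that can also carry retinoic acid, and it differed by 0.99 ± 0.21 with myclobutanil, 0.84 ± 0.21 with propiconazole and 1.03 ± 0.21 with triadimefon (limma adjusted p = 0.0439, 0.0836 and 0.054, 3 arrays a group).

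By role, the 20 tested genes of retinol and retinaldehyde oxidation or reduction held 1 rise and 1 fall with myclobutanil and 1 rise with each other compound, all of them members described above. The other retinaldehyde dehydrogenases did not pass: Aldh1a2 stood at 0.02, -0.02 and 0.00 and Aldh1a3 at -0.17, -0.26 and -0.09 for myclobutanil, propiconazole and triadimefon. Among 6 tested genes of retinoic acid binding and clearance, Cyp26b1, the second hydroxylase of the family, stood at -0.12, -0.20 and -0.29, opposite in sign to Cyp26a1, and did not pass (limma adjusted p = 0.688, 0.631 and 0.485). None of 8 tested receptor and cofactor genes passed limma in any of the 3 comparisons (1 higher and 1 lower with an unadjusted p below 0.05 with myclobutanil, 0 and 2 with each of the others). None of 7 tested genes of retinyl ester hydrolysis passed limma in the comparison of any 1 compound with control (3 higher and 2 lower with an unadjusted p below 0.05 with myclobutanil, 0 and 1 with propiconazole, 0 and 0 with triadimefon). Lipa, the lysosomal acid lipase gene of that group, passed the F test (limma adjusted p = 0.0363), with differences of 0.28 ± 0.07 for myclobutanil, -0.16 ± 0.07 for propiconazole and 0.06 ± 0.07 for triadimefon. Between myclobutanil and propiconazole Lipa differed by 0.44 ± 0.07, which did not pass (limma adjusted p = 0.0791). Among 10 tested genes known to respond to retinoic acid, Lrat was the one that passed. By sign alone, the difference was above 0 for 4 of the 10 with myclobutanil, 1 with propiconazole (Cyp26a1) and 3 with triadimefon. Rarb and Tgm2, both at 0.01, are among those of myclobutanil. The median of the 10 was -0.03, -0.13 and -0.11, against -0.01, -0.01 and -0.02 over all tested genes.

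**Figure D3:**
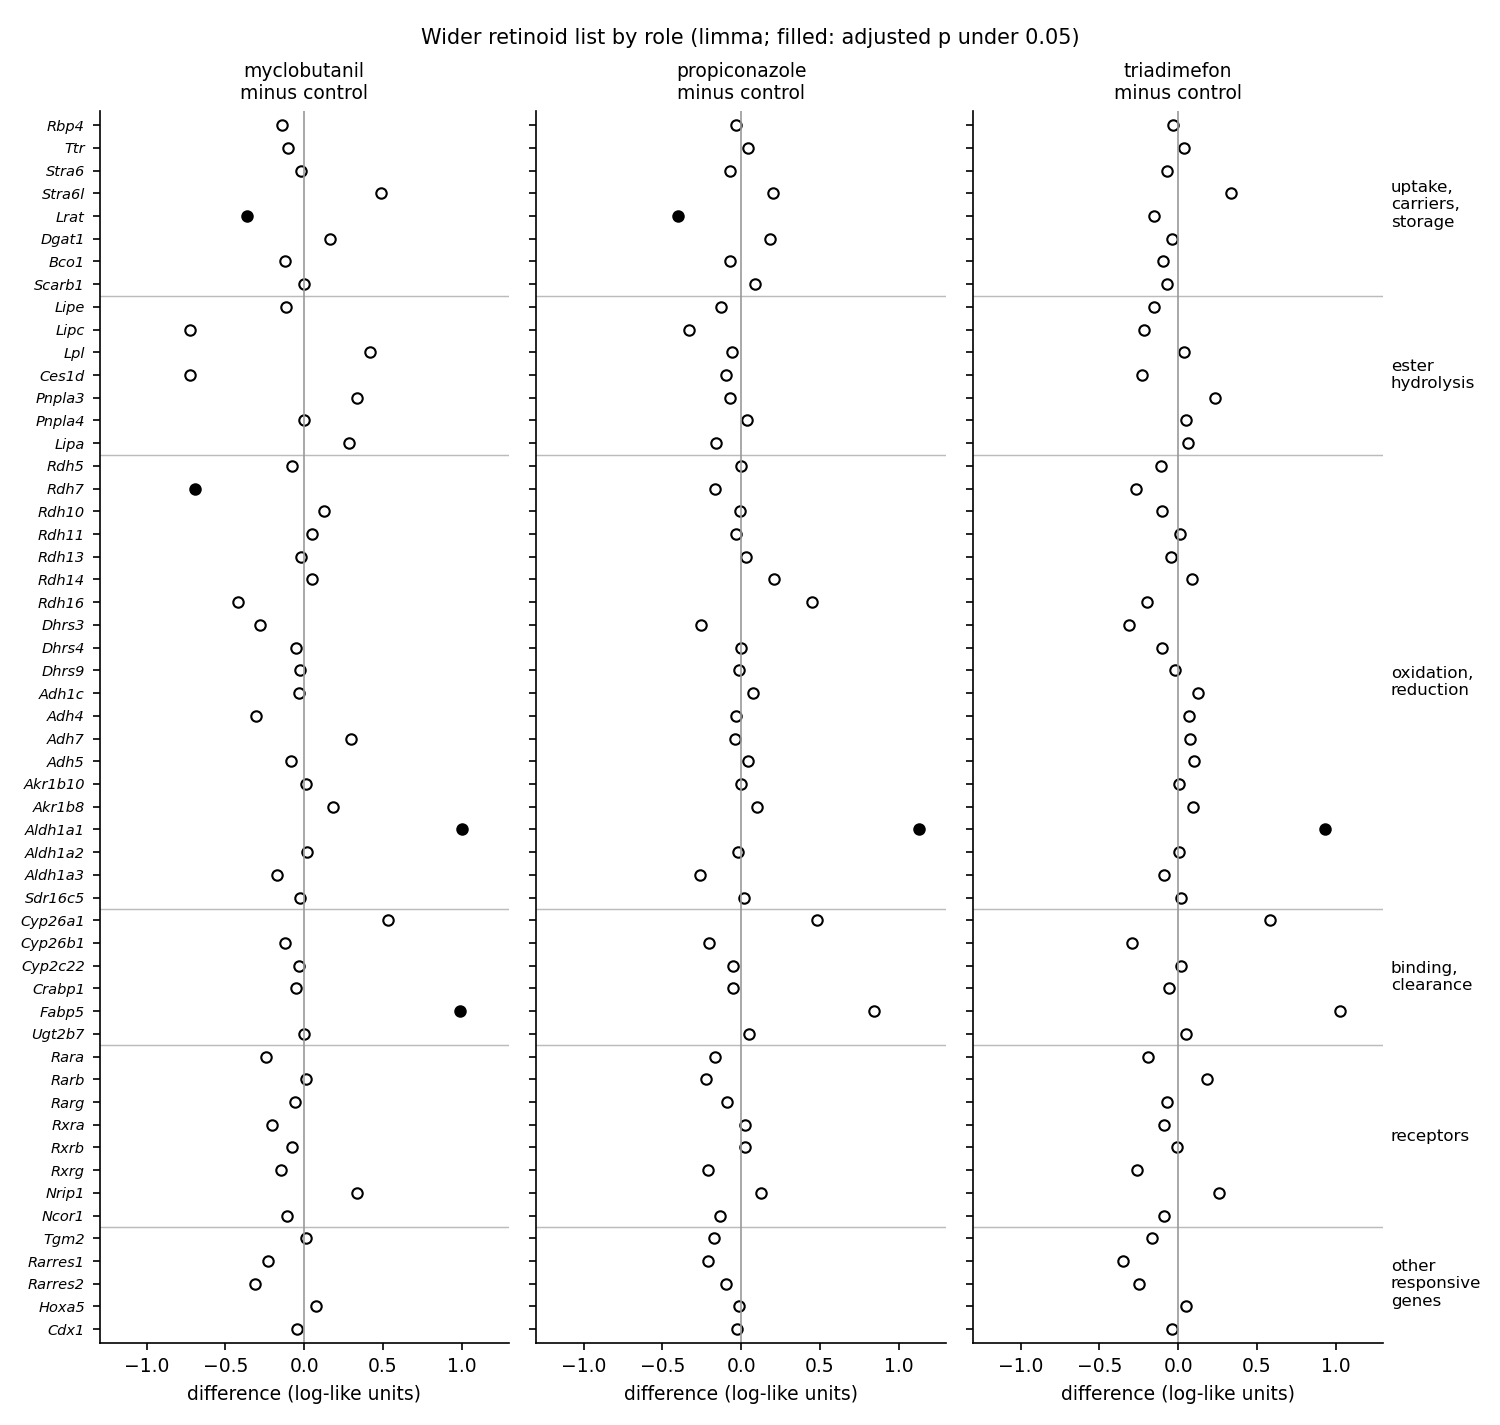
The 54 tested genes of the wider retinoid list are arranged by role, with the limma difference in log-like units on the horizontal axis for each compound against control and filled points for an adjusted p under 0.05. Aldh1a1, Cyp26a1 and Fabp5 stand to the right in all 3 panels, while the other aldehyde dehydrogenases and the receptors lie nearer 0.

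The genes most like each called member were taken as those with the smallest mean absolute difference between profiles over the 12 arrays, each profile set to 0 at its own control mean, among 11842 tested genes. For Aldh1a1 they were the carboxylesterase gene Ces2c (0.223), the glucuronosyltransferase gene Ugt2b1 (0.225) and Por (0.240), whose product passes electrons to microsomal P450 enzymes. For Rdh7 they were Abat (0.0609), which encodes the enzyme that breaks down the transmitter GABA, Ndufb10 (0.0906), a subunit of respiratory complex I, and the mitochondrial aldehyde dehydrogenase gene Aldh2 (0.0947). For Lrat they were Fchsd2 (0.0673), Wdr6 (0.0693) and Gucd1 (0.0714). Abat differed from control by -0.62 with myclobutanil, -0.20 with propiconazole and -0.28 with triadimefon, beside -0.69, -0.16 and -0.27 for Rdh7. These genes were picked for nearness on the same 12 arrays, so close differences follow from the choice.

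Hepatocyte markers had an average level per liver from 2.85 to 3.12 with myclobutanil, 3.09 to 3.24 with propiconazole and 3.12 to 3.21 with triadimefon, against 3.09 to 3.21 in control. No other tissue was measured, so these levels do not test the tissue label. Alb, which is in this average, was the brightest probe set of each array. Quantile normalization gives that rank the same value on every array, here 4.03. Its equal mean in every group is therefore set by the method and does not show that Alb was unchanged. The highest deposited value ran from 3.49 to 4.83 over the arrays. Other cells of the liver were followed by their markers too. Of 8 tested markers of Kupffer cells and macrophages, 5 fell with myclobutanil and none passed limma with propiconazole or triadimefon (0 with an unadjusted p below 0.05 in each), and their average level ran from 0.20 to 0.78 in myclobutanil livers against 1.12 to 1.26 in control livers. Of 6 tested endothelial markers, 1 fell with myclobutanil, 2 fell with propiconazole and 0 passed limma with triadimefon (2 lower with an unadjusted p below 0.05). Their average level ran from 0.74 to 0.88 with myclobutanil, 0.72 to 0.85 with propiconazole and 0.86 to 0.93 with triadimefon, against 0.95 to 1.06 in control, so all 9 treated livers lay below all 3 control livers in this average. The endothelial markers did not all move alike: Kdr stood at -0.55, -0.64 and -0.41 and Pecam1 at 0.03, 0.07 and 0.08 for myclobutanil, propiconazole and triadimefon. Of the 6, the difference was above 0 for 1, 1 and 2 in these comparisons. Of 3 tested cholangiocyte markers, 0 passed limma in any of the 3 comparisons (1 higher and 1 lower with an unadjusted p below 0.05 for myclobutanil, 1 higher and 0 lower for each of the others). Their average level was 0.29 to 0.32 with myclobutanil, 0.29 to 0.51 with propiconazole and 0.22 to 0.46 with triadimefon, against 0.15 to 0.22 in control, and the triadimefon livers alone overlapped control. Epcam, the epithelial adhesion gene of that list, differed by 0.42 ± 0.15, 0.52 ± 0.15 and 0.39 ± 0.15 for myclobutanil, propiconazole and triadimefon (limma adjusted p = 0.15, 0.134 and 0.286). The other tested cholangiocyte markers did not share this rise: Krt7 stood at -0.09, -0.03 and -0.01 and Spp1 at -0.02, 0.04 and 0.09. Of 11 tested hepatocyte markers, Cyp2e1 fell with myclobutanil and Apoa1 rose with propiconazole. As a measure of RNA integrity, the 3' probe set of GAPDH exceeded the 5' one by 0.624 ± 0.128 with myclobutanil, 0.434 ± 0.106 with propiconazole and 0.587 ± 0.212 with triadimefon, against 0.659 ± 0.252 in control (SD, n = 3). The part of these shifts in the retinoid values was not tested.

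**Figure D4:**
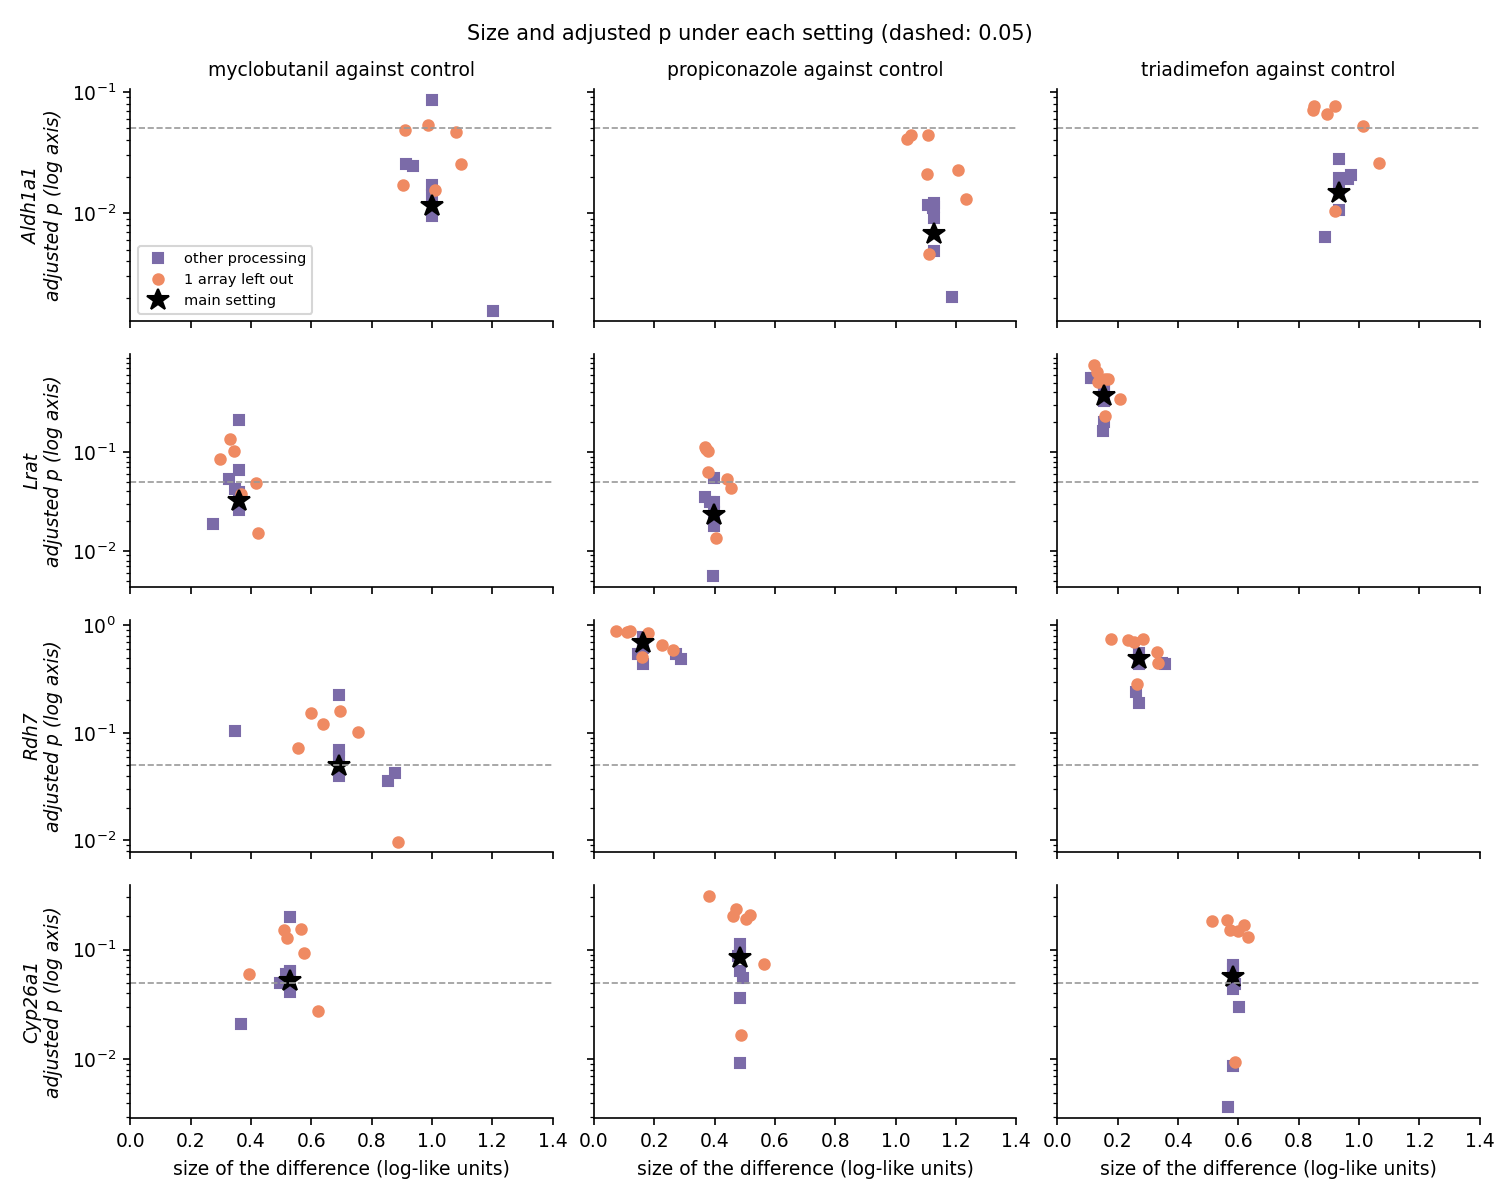
For the 4 members Aldh1a1, Lrat, Rdh7 and Cyp26a1, the size of the difference from control (horizontal axis, log-like units) is set against its limma adjusted p (vertical axis, log scale) with the main setting as a star, other processing as squares and 1 array left out as circles. For propiconazole the Aldh1a1 points all lie below the dashed line at 0.05, while the Cyp26a1 points lie on both sides of it for each compound.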

How the data were processed

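The authors deposited a log-like score per probe set, with 1 rat liver per array per the labels' protocols. How probes were summarised and normalized, with which software and in which log base, is not given in the sources used here. The deposited scores were quantile normalized, 57 control probe sets and the dimmest 30% (9313) were left out, and 21729 were tested. Symbols came from the platform annotation, which can be old, updated through the Entrez ID with the RefSeq table of GRCr8.

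Each probe set was fitted with limma 3.58.1 (R 4.3.3) on 4 group means of 12 arrays (8 residual degrees of freedom, intensity trend). Tests were two-sided, with Benjamini-Hochberg adjustment over all tested probe sets. On simulated data for myclobutanil against control with 21729 probe sets, 38.4% of shifts of 0.3, 77.4% of 0.6 and 96.9% of 1 were recovered, with 8 false calls among 147. The simulated noise was independent and had the same spread on every array. The real arrays differed in quality, with array weights from 0.096 to 4.62, so these rates may not hold for them.

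The 9 members, the wider retinoid list, the marker lists and the settings were chosen with earlier results of these data known. All probe sets of the members are reported, wider-list genes are named where they passed limma in any comparison or the F test, and for each called member the 3 genes nearest in profile are named. Wider-list genes named without a call were chosen after their values were seen. Figures were drawn with matplotlib 3.10.9.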

Additional observations from a re-analysis of the deposited data

How the results depend on the processing

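The replicate numbers of the titles gave no sign of pairing. Deviations of same-numbered arrays from their group means correlated between -0.494 and 0.495 over 18 pairs, with 3 above 0.1. Over 36 pairs with different numbers the range was -0.418 to 0.532, with 13 above 0.1. With 3 arrays per group this check cannot exclude pairing. With the number as a replicate block, limma called 147 probe sets for myclobutanil, 121 for propiconazole, 87 for triadimefon and 59 in the F test, against 396, 311, 167 and 233 without it, and 1 member each for myclobutanil, propiconazole and the F test in place of 3, 2 and 2. Array weights gave 1670, 1310, 1021 and 1747 calls, 344 between myclobutanil and propiconazole in place of 0, and 2 members for triadimefon and 4 in the F test. Fitting only the arrays of the compared groups gave 8 (no members), 648 and 623 calls, with 2 members for triadimefon. Between myclobutanil and propiconazole, median centring and the deposited values gave 1 call each and a 50% filter gave 2. Members called for triadimefon were 2 under median centring, the deposited values or the 50% filter in place of 1, the second being Cyp26a1, and members called for myclobutanil were 4 under median centring or the 50% filter in place of 3, Cyp26a1 being the one gained. In the F test, 1 member was called under median centring, the deposited values or no filter, where Lrat was lost (limma adjusted p = 0.0569, 0.0568 and 0.0527). Median centring moved the split of propiconazole calls to 158 higher and 63 lower, against 176 and 135.

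With 1 array left out, the calls ran from 30 to 924 for myclobutanil, 36 to 981 for propiconazole, 6 to 613 for triadimefon, 8 to 693 in the F test and 0 to 29 between myclobutanil and propiconazole. Members called ran from 0 to 4, 1 to 3, 0 to 2, 0 to 3 and 0 to 0. The fits without myclobutanil replicate 1 for the other compounds were added after seeing the data. For myclobutanil, Rdh7 lost its call with no filter (limma adjusted p = 0.0602), Lrat on the deposited values (0.0532), and Aldh1a1 and Lrat when only the compared groups were fitted (0.0863 and 0.208). The causes were not tested.

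Over 648 values of members under other settings, 572 kept their side of the threshold and direction, 44 lost a call, 17 gained one and 15 changed sign, none of these a called difference. The sign changes were those of Rarb for myclobutanil (-0.0215 under median centring, -0.0944 to 0.0807 with 1 array left out) and of differences between myclobutanil and propiconazole: with array weights 0.0526 for Dhrs3, 0.0147 for Aldh1a1 and -0.116 for Cyp26a1, with the deposited values 0.0228 for Crabp1, and with 1 array left out from -0.0949 to 0.149 for Cyp26a1, -0.0236 to 0.0982 for Lrat, -0.0242 to 0.0124 for Crabp1 and -0.103 to 0.0977 for Dhrs3. The log-like scale of unknown base and 3 arrays per group limit all of these values.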

Other observations

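The genes of the wider retinoid list given here were chosen after their values were seen, and none passed limma. Stra6l, a relative of the cellular retinol uptake receptor Stra6 that is known as a retinol-binding protein receptor in mouse liver, differed from control by 0.48 ± 0.12 with myclobutanil, 0.20 ± 0.12 with propiconazole and 0.34 ± 0.12 with triadimefon (limma adjusted p = 0.061, 0.464 and 0.237, 3 arrays a group). The retinoic acid receptor gene Rara differed by -0.24 ± 0.06, -0.17 ± 0.06 and -0.19 ± 0.06 (limma adjusted p = 0.0548, 0.19 and 0.166). Rarres2, a retinoic acid responsive gene that encodes the secreted protein chemerin, differed by -0.31 ± 0.07, -0.09 ± 0.07 and -0.25 ± 0.07 (limma adjusted p = 0.0538, 0.595 and 0.159). The hepatic lipase gene Lipc differed by -0.72 ± 0.18, -0.33 ± 0.18 and -0.22 ± 0.18 (limma adjusted p = 0.0666, 0.425 and 0.647). Rdh16, another retinol dehydrogenase, stood at -0.42 ± 0.19 with myclobutanil and 0.45 ± 0.19 with propiconazole, on opposite sides of control (limma adjusted p = 0.23 and 0.3), and at -0.20 ± 0.19 with triadimefon (0.693).

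Within the group of genes known to respond to retinoic acid, the members did not share a direction. On the normalized values Cyp26a1 lay above control in 9 of 9 treated livers, while Lrat lay below in 9 of 9 and Dhrs3 in 8 of 9. Rarb lay above all controls in 3 of 9 and below them in 2. Over all tested probe sets, 8.43% had their 9 treated arrays beyond the 3 controls in 1 direction, and the share for 8 of 9 was not computed. Among these members limma called only Lrat in the main setting, and on the deposited values Lrat overlapped control with triadimefon.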
